A study of Mus musculus with 24 samples.

Results

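Dopaminergic nuclei were the nuclei of the deep brain libraries that held at least 2 unique molecular identifiers (UMIs, 1 per captured RNA molecule) of *Slc6a3* and at least 1 of *Th*, with no UMI of *Tph2* or *Csf1r* and at most 2 in all of the oligodendrocyte genes *Mog*, *Mag* and *Mobp*. They also had between 500 and 7000 detected genes, under 20% of UMIs from mitochondrial genes and at least 3000 UMIs. There were 225 such nuclei among 87893 deep brain nuclei of that depth, or 0.256% (exact 95% binomial interval 0.224 to 0.292), and the mutant and control mice gave 115 and 110 of them. The study compared 6 mutant mice, *Pdgfb* ret/ret, with 6 control mice, *Pdgfb* ret/wt, on the B6.Pdgfbtm3Cbet background, by single-nucleus RNA sequencing of a deep brain and a cortex library from each mouse. The control mice were heterozygous for the same retention-motif allele, so no group was wild type, and the allele was carried in the germline by every cell. The deep brain samples pooled pallidum, thalamus, hypothalamus, midbrain and pons, so the dissection did not isolate the midbrain. By their labels, mice 1 to 3 of both genotypes were aged 5 months and up to 18 days, and mice 4 to 6 were aged 4 months and 7 to 24 days. All mutant mice and control mice 1 to 5 were female, and control mouse 6 was male, so sex was not balanced. Mice of both groups were anaesthetised with xylazine and ketamine and perfused with heparin in saline buffer before dissection.

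Dopaminergic neurons make dopamine from tyrosine. Tyrosine hydroxylase, encoded by *Th*, makes L-DOPA, aromatic amino acid decarboxylase, encoded by *Ddc*, turns it into dopamine, the vesicular monoamine transporter, encoded by *Slc18a2*, loads it into synaptic vesicles, and the dopamine transporter, encoded by *Slc6a3*, takes released dopamine back up. In the midbrain these neurons lie in the substantia nigra and the ventral tegmental area, and they are built and maintained by transcription factors such as NR4A2, PITX3, LMX1A, LMX1B, EN1 and FOXA2. Serotonergic neurons share the decarboxylase and the vesicular transporter but start from tryptophan, through TPH2. Neurons of the ventral substantia nigra that express *Sox6* and *Aldh1a1* are known to be lost early in Parkinson's disease, whereas many of the Calb1-expressing neurons of the dorsal tier and the ventral tegmental area are spared for longer.

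The promoters of 4 marker genes are given, *Slc6a3* and *Th* because the rule uses them and *Ddc* and *Slc18a2* because they were the check of the label. *Slc6a3* (ENSMUSG00000021609) lies on chromosome 13 of GRCm38 at 73536747 to 73578672 on the plus strand. *Th* (ENSMUSG00000000214) lies on chromosome 7 at 142892752 to 142931128 on the minus strand. The RefSeq start used below for *Th* lies within that span and not at its 5′ end. *Ddc* (ENSMUSG00000020182) lies on chromosome 11 at 11814101 to 11898144 on the minus strand, and *Slc18a2* (ENSMUSG00000025094) on chromosome 19 at 59260896 to 59296012 on the plus strand. Each sequence below runs 5′ to 3′ on the strand of its gene, from 250 bases before a RefSeq transcription start to 10 bases after it, on build GRCm38.p6. The capitals mark a cyclic AMP response element, TGACGTCA, which reads the same on both strands, or the NR4A monomer site AAAGGTCA, read here from the other strand as TGACCTTT.
Slc6a3 promoter, chr13:73536497-73536756: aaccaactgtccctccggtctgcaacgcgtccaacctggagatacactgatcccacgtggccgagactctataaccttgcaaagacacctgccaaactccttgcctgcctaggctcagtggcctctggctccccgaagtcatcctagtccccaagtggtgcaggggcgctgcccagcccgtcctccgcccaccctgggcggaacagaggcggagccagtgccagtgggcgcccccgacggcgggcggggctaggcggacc
Th promoter, chr7:142899986-142900245: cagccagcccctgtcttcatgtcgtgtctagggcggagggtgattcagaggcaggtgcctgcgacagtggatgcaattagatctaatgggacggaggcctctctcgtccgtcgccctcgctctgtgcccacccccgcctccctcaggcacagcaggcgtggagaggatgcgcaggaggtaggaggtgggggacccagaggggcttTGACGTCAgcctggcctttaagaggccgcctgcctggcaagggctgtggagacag
Ddc promoter, chr11:11898135-11898394: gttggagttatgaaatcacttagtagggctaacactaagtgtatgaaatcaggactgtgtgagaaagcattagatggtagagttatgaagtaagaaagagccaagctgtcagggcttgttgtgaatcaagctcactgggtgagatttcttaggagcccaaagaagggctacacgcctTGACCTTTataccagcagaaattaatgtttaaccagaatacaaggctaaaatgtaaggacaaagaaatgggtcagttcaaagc
Slc18a2 promoter, chr19:59260628-59260887: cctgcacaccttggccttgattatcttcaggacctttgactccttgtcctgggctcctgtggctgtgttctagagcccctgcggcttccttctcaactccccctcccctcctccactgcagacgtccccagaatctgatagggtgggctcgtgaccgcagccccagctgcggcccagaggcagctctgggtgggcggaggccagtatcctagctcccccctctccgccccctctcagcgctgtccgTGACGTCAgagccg
The cyclic AMP element of *Th* began 45 bases before the start and that of *Slc18a2* began 4 bases before it, while the NR4A letters of the listed *Ddc* start began 73 bases before it. Neither motif was found in the *Slc6a3* window or at a second *Ddc* start. Of 32851 RefSeq promoter windows of this length, 1.67% held TGACGTCA and 1.39% held AAAGGTCA on either strand. Among 22 of the 25 genes of synthesis, transport and transcription-factor identity that had a window, the first occurred in 2 and the second in 1. A match of letters is a description of the sequence and not evidence of binding.

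The label was checked against genes that did not choose the nuclei. *Ddc* was found in 95.1% of the dopaminergic nuclei and *Slc18a2* in 97.3%, at a median depth of 15345 UMIs per nucleus. In oligodendrocyte nuclei the shares were 11.9% and 1.03% at a median of 3752 UMIs, and in GABAergic nuclei 4.41% and 6.2% at a median of 9368. The *Ddc* share of the oligodendrocyte nuclei thus lay above that of the deeper GABAergic nuclei, so they were not free of *Ddc*. Why was not tested. Of 5 serotonergic genes, *Tph2* (set by the rule), *Slc6a4*, *Fev* and *Gata2* were at 0 in all 225 nuclei and *Gata3* had a single UMI, while the noradrenergic genes *Dbh*, *Slc6a2* and *Phox2a* had no UMI. Genes of other neurons were detected. All 10 genes of forebrain and hypothalamic dopaminergic neurons had UMIs, at a summed 11.5 to 202 CPM in the mutant and 17.6 to 112 CPM in the control libraries, of which *Prlr*, the prolactin receptor gene, was found in 20% of the nuclei and *Meis2* in 8.44%, and the others in 0.889% to 7.56%. The 3 GABAergic genes were at a summed 7.68 to 202 and 8.55 to 113 CPM, and the 5 forebrain glutamatergic genes at 10.6 to 35.8 and 17.6 to 48.8 CPM. The 5 striatal genes stood at 599 to 1251 and 555 to 860 CPM, mostly from *Pde10a* at a mean of 729 CPM, and the 4 thalamic genes at 903 to 1367 and 930 to 1282 CPM, mostly from *Rora* at 1108 CPM. The part of these cell types in the results was not tested. UMIs of 8 oligodendrocyte genes were present at a summed level of 80.6 to 258 counts per 1000000 UMIs (CPM) in the mutant libraries and 130 to 193 CPM in the control libraries. All 6 astrocyte genes were detected too, at a summed 184 to 526 CPM in the mutant and 183 to 381 CPM in the control libraries, and 4 of 5 microglia genes at 33.6 to 108 and 51.1 to 82.1 CPM. Scrublet called 5.58% of the deep brain nuclei within the limits doublets and none of the 225, and no barcode of a dopaminergic nucleus was shared between libraries. The cortex libraries, which should lack this cell type, gave 5 nuclei of 34457 under the same rule, or 0.0145% (0.00471 to 0.0339).

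The rule fixed the levels of *Slc6a3* and *Th*, which are given as a description. A dopaminergic nucleus held a median of 16 *Slc6a3* UMIs, with a range of 2 to 51, and a median of 10 *Th* UMIs, with a range of 1 to 76. Just inside the limit, the 25 nuclei with exactly 2 *Slc6a3* UMIs had 382 CPM of *Ddc* and 468 CPM of *Slc18a2*. Just outside it, 42 nuclei with a single *Slc6a3* UMI had 203 and 290 CPM. The 25 nuclei with at least 2 *Slc6a3* UMIs but no *Th* had 118 CPM of *Ddc* and 3.04 CPM of *En1*, a homeobox gene of midbrain dopaminergic neurons. A further 1505 nuclei had *Th* without *Slc6a3*, with *Ddc* at 34.1 CPM and *Slc18a2* at 59.1 CPM, and were not counted as dopaminergic. Nuclei near the limit were shallow, with a median of 6751 UMIs at exactly 2 *Slc6a3* UMIs, and 18 of those 25 came from mutant and 7 from control mice.

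The share of nuclei that were dopaminergic was compared between genotypes to ask whether these neurons were fewer in the mutant mice. In the mutant libraries the share ran from 0.217% through a median of 0.239% to 0.353%, and in the control libraries from 0.114% through 0.253% to 0.386%. The ranges overlapped throughout, and both ends of the whole range were control mice. The means were 0.255% ± 0.0506 (SD, n = 6) and 0.253% ± 0.0871 (SD, n = 6), which did not differ by more than the spread between mice (difference 0.00168 percentage points, p = 0.987, two-sided exact permutation test). After every nucleus was thinned to 3000 UMIs and the whole rule applied again, the shares were 0.165% ± 0.0491 and 0.177% ± 0.0649 (p = 0.747, exact permutation test). Thinning also removes UMIs of the genes that exclude a nucleus, so other nuclei could enter. Control library 2 had 20 such nuclei after thinning and 18 before. Counts per library were 15 to 30 in the mutant mice and 7 to 24 in the control mice, so the exact interval of a single library was wide, from 0.0458% to 0.235% for control mouse 4 with 7 nuclei. These intervals cover counting error only, and a difference of a size within the spread between mice was not detectable at this depth.

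**Figure D1:**
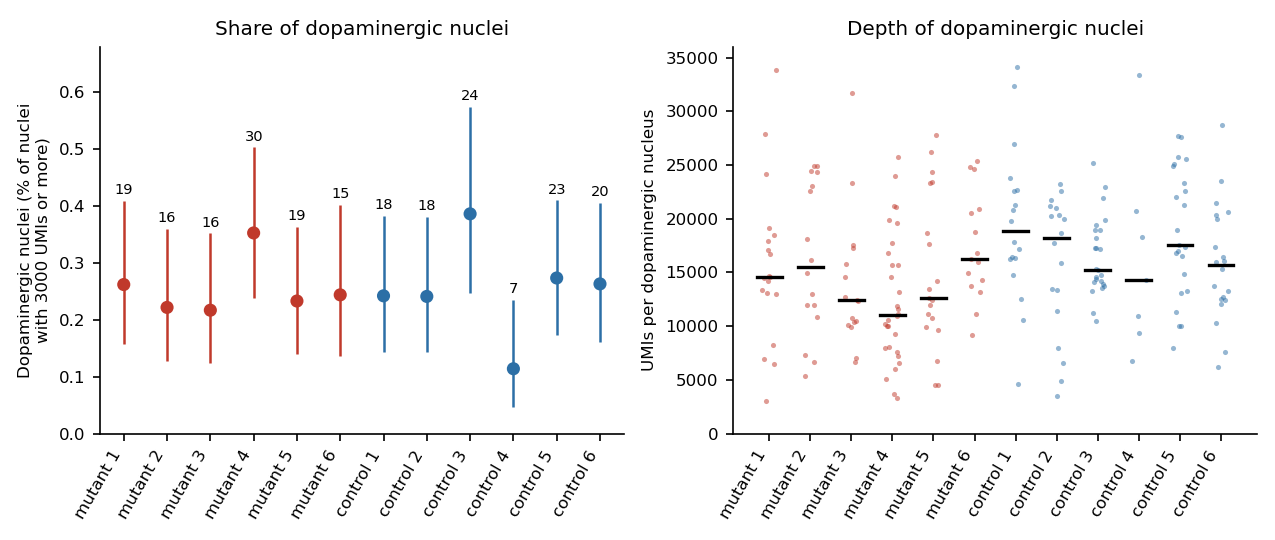
Left, dopaminergic nuclei as a percentage of deep brain nuclei with at least 3000 UMIs in each library, with exact 95% binomial intervals and the number of dopaminergic nuclei above each. Right, UMIs per dopaminergic nucleus, 1 point per nucleus with the library median as a bar. The shares of the 6 mutant (red) and 6 control (blue) libraries overlap, while 4 of the 6 mutant medians on the right lie below all control medians tested.

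The dopaminergic nuclei of the mutant mice were shallower than those of the control mice. The median UMIs per nucleus were 14544, 15545, 12406.5, 11028, 12626 and 16213 in mutant libraries 1 to 6. They were 18828.5, 18217, 15246.5, 17530 and 15668 in control libraries 1, 2, 3, 5 and 6, and 14281 in control library 4, which held fewer than 10 dopaminergic nuclei and was left out of this and all later tests between genotypes. Of the 6 mutant libraries, 4 lay below all 5 control libraries. The means were 13727 ± 2020 (SD, n = 6) and 17098 ± 1574 (SD, n = 5), a difference of -3370.92 UMIs (p = 0.0238, two-sided exact permutation test, smallest possible p = 0.004329). On the mean of log2 UMIs the difference was -0.239 and no longer passed the threshold (p = 0.0563, exact permutation test).

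In all nuclei within the limits, the median UMIs per nucleus were 4927 ± 790 in the 6 mutant and 5902 ± 1129 in the 6 control libraries (difference -974.5, p = 0.123, two-sided exact permutation test). The difference was smaller in the other neurons of the same 11 libraries. GABAergic nuclei had 8984 ± 777 UMIs in the mutant and 9641 ± 993 in the control libraries (p = 0.251, exact permutation test, n = 6 and 5). For nuclei with the vesicular glutamate transporter gene *Slc17a6* the values were 10600 ± 1022 and 10853 ± 1373 (p = 0.727, exact permutation test). The difference between the populations was tested as the log2 ratio of the dopaminergic median to the *Slc17a6* median in each library, which was 0.36 ± 0.26 in the mutant and 0.66 ± 0.18 in the control libraries (difference -0.30, p = 0.0671, exact permutation test), so the depth difference was not shown to be particular to dopaminergic nuclei. Restricted to dopaminergic nuclei with a UMI of *Pitx3*, *En1*, *Lmx1a*, *Lmx1b*, *Foxa1* or *Foxa2*, a choice made after the data were seen, the difference was -3278 UMIs (p = 0.039, exact permutation test).

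The genes of the dopaminergic nuclei were then set against those of 3 other neuronal populations of the same libraries, each chosen by its own markers: 7711 GABAergic nuclei (*Gad1* and *Gad2* together at least 2 UMIs and *Slc32a1* at least 1, without *Slc17a6* or striatal markers), 13012 *Slc17a6* nuclei (at least 2 UMIs, without *Gad1*, *Gad2* or *Slc32a1*) and 155 serotonergic nuclei (*Tph2* at least 2 UMIs, without *Slc6a3*). UMIs were summed per library and population, and levels are given as CPM of those sums, as means ± SD over the 12 libraries for dopaminergic nuclei. Fold changes and adjusted p values come from edgeR's quasi-likelihood test with the library as a block and Benjamini-Hochberg adjustment over all genes tested, in the 11 libraries with at least 10 dopaminergic nuclei, or the 7 that also held at least 10 serotonergic nuclei. Against GABAergic nuclei, 34.4% of 12669 genes passed an adjusted p of 0.05, 15.9% higher and 18.5% lower. Against *Slc17a6* nuclei, 32.5% of 13929 passed, 13.6% higher and 18.9% lower, and against serotonergic nuclei 19.6% of 5507, 11% higher and 8.61% lower. Genes used by any of these rules were not tested. These shares of all genes are the background for every count of list members given below.

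Of 6 synthesis genes tested, 3 were higher in the dopaminergic than in the GABAergic nuclei (*Ddc*, *Gch1* and *Pcbd1*) and 4 higher than in the *Slc17a6* nuclei (the same with *Pts*), and 1 of the 2 tested was lower than in serotonergic nuclei. *Ddc* was at 524 CPM in the lowest library, 682 in the median and 871 in the highest, against 3.59 to 8.81 CPM in GABAergic, 3.75 to 6.06 in *Slc17a6* and 497 to 904 in serotonergic libraries. The lowest dopaminergic library thus lay far above every GABAergic and *Slc17a6* library and within the serotonergic range. Its difference was 6.96 ± 0.10 (log2 ± SE, adjusted p = 1.19e-32, edgeR) against GABAergic nuclei and 0.05 ± 0.12 (adjusted p = 0.855) against serotonergic nuclei. *Gch1*, which makes the pterin cofactor of both hydroxylases, had 62.3 ± 21.2 CPM, against 0.623 in GABAergic, 0.511 in *Slc17a6* and 114 ± 41.3 CPM in serotonergic nuclei, and was lower than in the last by 0.90 ± 0.21 (log2, adjusted p = 0.00282). *Pts* lost its call when mutant library 1, 2, 4 or 6 or control library 1, 2 or 3 was left out.

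Of 5 vesicle and terminal genes tested, 4 were higher in the dopaminergic than in the GABAergic and the *Slc17a6* nuclei and 3 higher than in the serotonergic nuclei. *Slc18a2* had 982 ± 114 CPM, against 10.2 ± 3.32 in GABAergic, 4.58 ± 0.819 in *Slc17a6* and 846 ± 146 CPM in serotonergic nuclei, so it was 102-fold higher than in GABAergic nuclei and 210.2-fold higher than in *Slc17a6* nuclei, and not past the threshold against serotonergic nuclei (log2 0.30 ± 0.12, adjusted p = 0.104, edgeR). *Sv2c*, a synaptic vesicle protein, ran from 511 through 713 to 826 CPM and was at 66.2 to 103 CPM in GABAergic, 31.3 to 55 in *Slc17a6* and 10.6 to 33.2 in serotonergic libraries. No library of the other populations reached the lowest dopaminergic one, and the log2 difference from serotonergic nuclei was 5.12 ± 0.19 (adjusted p = 2.82e-13). *Slc10a4*, a transporter of monoaminergic and cholinergic vesicles, had 266 ± 46.8 CPM against 119 ± 37.9 in serotonergic nuclei (log2 1.29 ± 0.17, adjusted p = 3.58e-06) and 0.93 CPM in *Slc17a6* nuclei, where it was the gene with the largest difference of all those named (log2 8.13 ± 0.12). *Cplx1*, a regulator of vesicle fusion, was among the higher genes in all 3 comparisons.

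Among enzymes that break dopamine or its aldehyde down, 1 of the 2 monoamine oxidase genes differed between dopaminergic and serotonergic nuclei. *Maob* was at 0 to 15.9 CPM in dopaminergic and 119 to 304 CPM in serotonergic libraries, without overlap, and was lower by 4.63 ± 0.28 on the log2 scale (adjusted p = 7.94e-11, edgeR). *Maoa* was at 48.9 ± 12.3 CPM and 55.9 ± 22.9 CPM (log2 -0.04 ± 0.23, adjusted p = 0.95). *Aldh1a1*, an aldehyde dehydrogenase, had 239 ± 115 CPM, from 70.6 to 483 CPM between libraries, and was above every library of the other 3 populations, where the highest was 19.8 CPM. Its log2 difference was 5.59 ± 0.16 against GABAergic, 5.29 ± 0.15 against *Slc17a6* and 5.13 ± 0.32 against serotonergic nuclei. In all, 3 of 5 such genes were higher than in GABAergic nuclei, 2 were higher and 1 lower than in *Slc17a6* nuclei, and 1 was higher and 1 lower than in serotonergic nuclei.

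**Figure D2:**
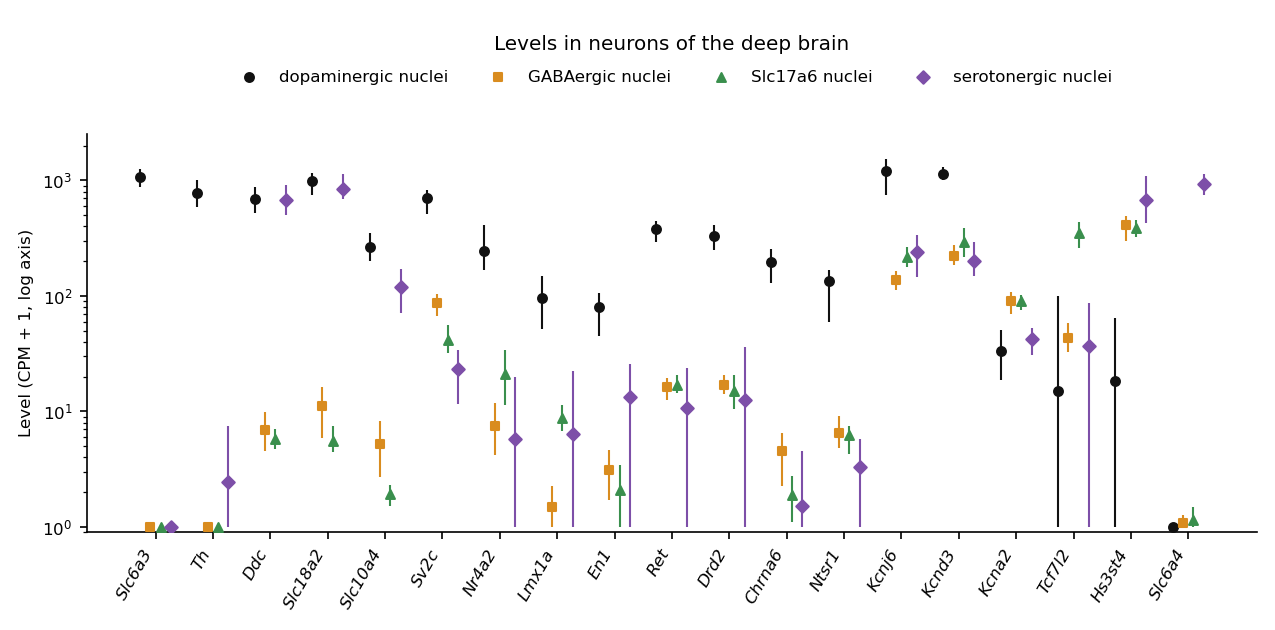
Mean level over libraries, as CPM + 1 on a log axis, of named genes in dopaminergic (black), GABAergic (orange), *Slc17a6* (green) and serotonergic (purple) nuclei of the deep brain, with bars from the lowest to the highest library. *Ddc* and *Slc18a2* are shared with serotonergic nuclei, *Sv2c*, *Ret*, *Drd2* and *Chrna6* are higher in dopaminergic nuclei, and *Kcna2*, *Hs3st4* and *Slc6a4* are lower in dopaminergic nuclei than in 1 or more of the others.

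Most transcription factors of midbrain dopaminergic identity were higher in the dopaminergic nuclei. Of 12 tested, 10 were higher than in GABAergic nuclei and 1 lower, with a median log2 difference of 5.31 where the median of all genes tested was -0.04. Against *Slc17a6* nuclei 10 were higher and 2 lower, and against serotonergic nuclei 5 of 6 were higher and none lower. *Nr4a2*, the nuclear receptor NURR1, ran from 166 through 218 to 409 CPM and was at 0 to 18.9 CPM in serotonergic and 10.3 to 33.2 CPM in *Slc17a6* libraries, again without overlap. *Lmx1a* had 94.7 ± 26.1 CPM against 0.489 CPM in GABAergic nuclei, the largest difference of the genes named there (log2 7.75 ± 0.28, adjusted p = 1.39e-21, edgeR). *En1* had 79.3 ± 16.6 CPM against 12.4 ± 9.15 in serotonergic nuclei (log2 2.81 ± 0.30), whereas *Lmx1b*, which serotonergic neurons also use, had 82.7 ± 14.2 CPM against 103 ± 32.9 CPM there (log2 -0.30 ± 0.17, adjusted p = 0.291). The factor lower than in GABAergic nuclei was *Otx2*, and the factors lower than in *Slc17a6* nuclei were *Ebf1* and *Ebf2*. The call of *Ebf1* against serotonergic nuclei was lost without control library 6 (adjusted p = 0.051).

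Receptors for trophic factors and guidance cues moved in both directions. *Ret*, the signalling receptor for GDNF, ran from 293 through 388 to 447 CPM, and every dopaminergic library lay above every library of the other populations, where the highest was 22.6 CPM (log2 5.18 ± 0.27 against serotonergic nuclei, adjusted p = 1.25e-11, edgeR). *Gfra1*, its co-receptor, had 457 ± 120 CPM against 244 ± 32.6 CPM in serotonergic nuclei (log2 0.90 ± 0.14). The neuregulin receptor gene *Erbb4* and the netrin receptor gene *Dcc* were at 3676 ± 511 and 3643 ± 616 CPM and were higher than in all 3 populations, *Dcc* by 1.47 to 1.56 on the log2 scale. Of 9 trophic and guidance genes, 5 were higher and 4 lower than in GABAergic nuclei, the lower ones being *Gfra2*, *Ntrk2*, *Ntrk3* and *Igf1r*, and 4 were higher and 3 lower than in *Slc17a6* nuclei. The call of *Ntrk2* against *Slc17a6* nuclei was lost without control library 1 (adjusted p = 0.0592), and with nuclei thinned to 3000 UMIs its calls against GABAergic (log2 -0.25, adjusted p = 0.102) and *Slc17a6* nuclei (log2 -0.21, adjusted p = 0.211) were lost.

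Of 12 receptor genes for transmitters and peptides, 10 were higher and 1 lower than in GABAergic nuclei, 8 higher and 2 lower than in *Slc17a6* nuclei, and 8 of 10 higher and 1 lower than in serotonergic nuclei. *Drd2*, the dopamine autoreceptor, ran from 249 through 328 to 406 CPM, against at most 35.5 CPM in any library of the other populations (log2 4.51 ± 0.09 against GABAergic nuclei, adjusted p = 3.28e-28, edgeR). *Chrna6* and *Chrnb3*, subunits of the nicotinic receptor of dopaminergic terminals, had 196 ± 33.8 and 178 ± 39.2 CPM, against 3.53 and 4.67 CPM in GABAergic nuclei and a single UMI each in all 155 serotonergic nuclei. *Ntsr1*, the neurotensin receptor, had 134 ± 34.4 CPM against 5.46 in GABAergic, 5.23 in *Slc17a6* and 2.29 CPM in serotonergic nuclei. In the other direction, *Glra2*, a glycine receptor subunit, had 57.1 ± 24.8 CPM against 178 ± 34.8 CPM in serotonergic nuclei and was lower than in them by 1.61 ± 0.22 on the log2 scale (adjusted p = 6.82e-06).

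Ion channel genes differed in both directions. The potassium channel genes *Kcnj6* (GIRK2, opened by the D2 autoreceptor), *Kcnd3* (an A-type channel) and *Kcnn3* (the calcium-activated SK3 channel) were higher than in all 3 populations. *Kcnj6* ran from 743 through 1211 to 1539 CPM, against 112 to 163 in GABAergic, 176 to 265 in *Slc17a6* and 145 to 337 CPM in serotonergic libraries (log2 3.30 ± 0.09, 2.51 ± 0.09 and 2.50 ± 0.16). Every dopaminergic library was above every other library. *Kcna2*, a delayed rectifier potassium channel, was at 17.6 to 49.3 CPM in dopaminergic, 69.2 to 106 in GABAergic and 74.4 to 100.3 CPM in *Slc17a6* libraries, without overlap, and was lower by 1.31 ± 0.12 and 1.41 ± 0.12 on the log2 scale. Against serotonergic nuclei its log2 difference was -0.20 ± 0.22 (adjusted p = 0.659). *Cacna1d*, the Cav1.3 calcium channel of pacemaking, was higher than in GABAergic nuclei by 0.31 ± 0.07 and than in serotonergic nuclei by 0.59 ± 0.13, and against *Slc17a6* nuclei it had a log2 difference of 0.18 ± 0.07 (adjusted p = 0.0599). *Cacna1c*, the more widely used Cav1.2 channel, was lower than in *Slc17a6* nuclei by 1.21 ± 0.08. Of 13 channel genes, 6 were higher and 3 lower than in GABAergic nuclei, 3 higher and 6 lower than in *Slc17a6* nuclei, and 5 higher and 1 lower than in serotonergic nuclei.

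Of 16 genes linked to inherited Parkinson's disease, 4 were higher and 1 lower than in GABAergic and in *Slc17a6* nuclei, and 2 of 10 were higher and 1 lower than in serotonergic nuclei. Against the first pair of populations this is a share near that of all genes called, 34.4% and 32.5%. *Uchl1*, a neuronal ubiquitin hydrolase, had 231 ± 41.9 CPM and *Dnajc6*, the clathrin-uncoating cofactor auxilin, 406 ± 50.5 CPM. *Uchl1* was higher than in GABAergic nuclei by 0.71 ± 0.08 and than in *Slc17a6* nuclei by 0.45 ± 0.08, and *Dnajc6* higher than in all 3, where its calls against *Slc17a6* (adjusted p = 0.445) and serotonergic nuclei (adjusted p = 0.391) were lost with nuclei thinned to 3000 UMIs. *Vps13c*, a lipid transfer protein gene, was lower than in all 3 by 0.57 to 0.68 on the log2 scale. Of the 4 calls of a higher level against GABAergic nuclei, 1 was lost when control library 1, 5 or 6 or mutant library 3, 4 or 6 was left out.

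Among genes linked to inherited primary brain calcification, the phosphate transporter genes were lower in dopaminergic nuclei than in some of the other populations. *Slc20a2*, a phosphate importer, was at 24.7 to 67.3 CPM in dopaminergic libraries and lower than in GABAergic and *Slc17a6* nuclei by 0.78 ± 0.13 and 0.77 ± 0.13 on the log2 scale (adjusted p = 9.47e-06 and 1.09e-05, edgeR). *Xpr1*, the phosphate exporter, had 110 ± 21.2 CPM against 188 ± 12.2, 142 ± 6.46 and 185 ± 37.9 CPM and was lower than in all 3, and its call against serotonergic nuclei was lost with DESeq2 (adjusted p = 0.0841). Of the calcification list, 2 of 5 were lower than in GABAergic nuclei, 4 of 6 lower than in *Slc17a6* nuclei and 1 of 4 higher and 1 lower than in serotonergic nuclei, the higher one being *Naa60*. Of all genes tested, 18.5%, 18.9% and 8.61% were lower in the 3 comparisons, and 11% were higher than in serotonergic nuclei. With so few genes in the list, its counts are a description. The calls of *Slc20a1* against *Slc17a6* nuclei and of *Naa60* against serotonergic nuclei were lost when 1 library was left out, the first without mutant library 1 or 2 or control library 1, 2, 3 or 6, the second without mutant library 4 or 5 or control library 5 or 6.

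Nuclear-encoded genes of oxidative phosphorylation were lower than in GABAergic nuclei in 12 of 15 cases, with a median log2 difference of -0.48, lower than in *Slc17a6* nuclei in 4 of 15 (with 18.9% of all genes lower), and called in neither direction in 14 tested against serotonergic nuclei. *Cox5a*, a subunit of cytochrome c oxidase, had 46.4 ± 23.2 CPM against 85.3 ± 8.29 in GABAergic and 63.5 ± 6.14 CPM in *Slc17a6* nuclei (log2 -0.87 ± 0.14 and -0.56 ± 0.15). Mitochondrially encoded transcripts, which in nuclei come from outside the nucleus, were lower than in GABAergic nuclei in 8 of 13 cases, lower than in *Slc17a6* nuclei in 3 of 13, a share near that of all genes, and called in neither direction in 7 tested against serotonergic nuclei. The dopaminergic nuclei were also deeper, at a median of 15345 UMIs against 9368. With all nuclei thinned to 3000 UMIs, 4 of 15 nuclear-encoded and 3 of 12 mitochondrially encoded genes were lower than in GABAergic nuclei, where 10.5% of all genes were, with medians of -0.37 and -0.46 on the log2 scale beside -0.14 for all genes. Against *Slc17a6* nuclei the thinned counts were 2 of 15 and 2 of 12, where 11.8% of all genes were lower. The counts against GABAergic nuclei thus fell in a fit with fewer UMIs, in which the share of all genes lower also fell, from 18.5% to 10.5%. The median log2 difference of the mitochondrially encoded genes was -0.46 before thinning as well. The part of depth in these differences was not tested.

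By size of difference rather than by function, the genes most above the GABAergic nuclei were *Lmx1a*, *Gucy2c*, *Lmx1b*, *Ddc*, *Slc18a2*, *Gch1*, *Ttc6* and *Slc10a4*. *Gucy2c*, a guanylate cyclase receptor, had 51.8 ± 19.2 CPM, with libraries from 26.4 to 81 CPM, and was at 0 to 0.74 CPM in GABAergic libraries (log2 7.37 ± 0.28). Those most above the serotonergic nuclei were *Ntf3*, *Chrna6*, *Chrnb3*, *Mob3b*, *Bnc2*, *Prima1*, *Nr4a2* and *Ntsr1*. *Ntf3*, the neurotrophin-3 gene, had 95.7 ± 23.2 CPM and a single UMI in all 155 serotonergic nuclei. *Bnc2*, a zinc finger gene, had 541 ± 132 CPM against 6.51 ± 7.45 in serotonergic and 10.5 CPM in GABAergic nuclei. *Mob3b* and *Prima1* had 181 and 169 CPM in the libraries tested, against 1.05 and 2.1 CPM in serotonergic nuclei. Both were also detected in oligodendrocyte nuclei, in 57.4% and 39.7%, so UMIs of that cell type could add to them. The 2 oligodendrocyte genes tested against serotonergic nuclei were not called (log2 -0.02 and 0.05). The part of oligodendrocyte UMIs in the levels of *Mob3b* and *Prima1* was not tested.

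The genes most below the other populations included *Hs3st4* against all 3. *Hs3st4*, a heparan sulphate sulphotransferase, was at 0 to 62.7 CPM in dopaminergic libraries against 295 to 494 in GABAergic, 319 to 451 in *Slc17a6* and 422 to 1090 CPM in serotonergic libraries, without overlap (log2 -4.42 ± 0.18, -4.42 ± 0.17 and -5.25 ± 0.30). *Myo5b*, a vesicle motor, was lower than in GABAergic nuclei (log2 -5.13 ± 0.27) and than in serotonergic nuclei (log2 -5.37 ± 0.37). Against *Slc17a6* nuclei the genes most below were *Grid2ip*, *Lef1*, *Prkch*, *Tcf7l2*, *Synpo2*, *Hs3st4*, *Abhd12b* and *Fign*, of which *Lef1* and *Tcf7l2* encode Wnt-dependent transcription factors of the thalamus. *Slc6a4*, the serotonin transporter, had 930 ± 136 CPM in serotonergic nuclei and no UMI in any dopaminergic nucleus, which made it at least 1130-fold lower, with 3 counts over the whole population taken as the floor.

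Within the 225 nuclei, *Sox6* and *Calb1* marked 2 ends of a range. Both were found in part of the nuclei, *Sox6* in 55.6% and *Calb1* in 59.6%. With at least 2 UMIs as the limit, 86 nuclei had *Sox6* alone, 73 had *Calb1* alone, 25 had both and 41 had neither. Across the 225 nuclei Spearman's rho between the CPM of *Sox6* and *Calb1* was -0.61, and between *Sox6* and *Kcnj6* 0.59. These are descriptions over nuclei that share libraries and differ in depth, and no test was run. Every library held both kinds, with 5 to 15 nuclei of at least 2 *Sox6* UMIs and 5 to 14 nuclei of no *Sox6* UMI in each, apart from control library 4 with 4 and 3.

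**Figure D3:**
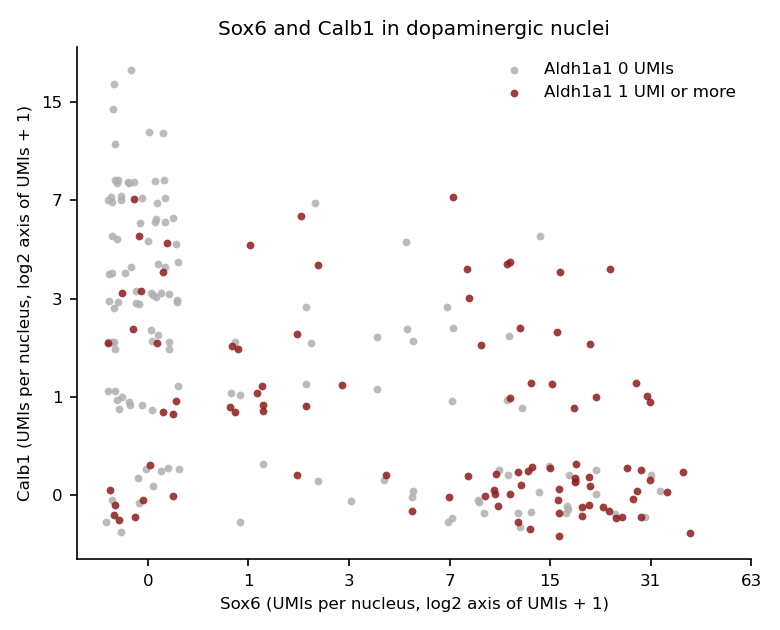
UMIs of *Sox6* (horizontal) and *Calb1* (vertical) in each of the 225 dopaminergic nuclei, on log2 axes of UMIs + 1, with points spread slightly for visibility and coloured red where *Aldh1a1* had at least 1 UMI. The points fill 2 arms, one along high *Sox6* and low *Calb1* with most of the red points and one along high *Calb1* without *Sox6*, and 25 nuclei hold at least 2 UMIs of both.

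Levels in the 111 nuclei with at least 2 *Sox6* UMIs (56 from mutant and 55 from control mice) were set beside those in the 100 nuclei without *Sox6* (51 and 49), as CPM of the summed UMIs with exact Poisson intervals that cover counting error only. The split used these same nuclei, so no test was made. All 9 genes of the ventral tier list besides *Sox6* were higher in the *Sox6* nuclei, with intervals that did not overlap. The share of all genes with such intervals was not counted, so this count is a description. *Aldh1a1* was at 281 CPM (259 to 305) against 82.7 (68.1 to 99.7), and *Anxa1*, which marks a subset of the ventral nigra, at 68.4 (57.5 to 80.7) against 5.96 (2.57 to 11.8). *Kcns3*, a silent potassium channel subunit, was at 360 (335 to 387) against 97.7 CPM (81.7 to 116). Of 36 nuclei with an *Anxa1* UMI, 35 also had *Aldh1a1* and 33 had *Sox6*. *Kcnj6* stood at 1589 (1535 to 1645) against 659 CPM (616 to 704) and *Sv2c* at 871 (831 to 912) against 390 CPM (357 to 425). *Slc6a3* was at 1224 (1176 to 1273) against 844 CPM (795 to 895), while *Th* was at 710 (674 to 748) against 871 CPM (822 to 923) and *Slc18a2* at 985 (942 to 1028) against 936 CPM (884 to 989). Of the 1169 *Th* UMIs in the nuclei without *Sox6*, 76 lay in a nucleus of control library 3 and 71 in a nucleus of mutant library 5. The interval of *Th* does not reflect this, and the rule used *Slc6a3* and *Th*.

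Of 16 genes known from the dorsal tier and the ventral tegmental area, 12 were higher in the nuclei without *Sox6* with intervals that did not overlap, and none was lower. How many of all genes had such intervals was not counted, so the count is a description. Genes outside the list, such as *Ret* and *Gfra1*, were also higher in these nuclei without overlap. *Vip* counts among the 12 through few nuclei, since 160 of its 162 UMIs in the nuclei without *Sox6* lay in 7 nuclei, and its interval does not reflect this. Of *Slc32a1*, another of the 12, 29 UMIs lay in 20 nuclei without a UMI of 6 midbrain factors, which are described below. Its level was 171 CPM in those nuclei and 13.4 CPM in the 205 others. The intervals of *Nxph4*, *Crym*, *Tacr3* and *Lypd1* overlapped, with *Tacr3* at 107 (89.8 to 126) against 99.7 CPM (86.5 to 114) and *Lypd1* at 30.6 (21.9 to 41.5) against 34.2 CPM (26.7 to 43.2). *Calb1*, a calcium buffer, was at 288 CPM (260 to 318) against 48.9 (39.7 to 59.4) in the *Sox6* nuclei, and the neuropeptide gene *Cck* at 124 (106 to 144) against 33.2 (25.8 to 42.1). *Slc17a6*, whose product loads glutamate into vesicles, was at 65.6 (52.6 to 80.8) against 10.7 CPM (6.74 to 16.3). Among the factors of identity, *Lmx1a* was at 172 (151 to 196) against 46.4 CPM (37.5 to 56.7) and *Otx2* at 11.9 (6.82 to 19.4) against 1.47 CPM (0.302 to 4.28), while *Nr4a2* was at 285 (257 to 315) against 226 CPM (206 to 248). *Glra2* was at 124 (106 to 145) against 17.1 CPM (11.9 to 23.8). Genes not of this tier were also higher in the nuclei without *Sox6*. *Meis2* was at 78.3 against 2.44 CPM, *Zeb2* at 81.3 against 6.35, *Gad2* at 67.8 against 17.1 and *Trh* at 20.9 against 0.489 CPM, whereas the intervals of *Dlx1* overlapped. Whether other cell types added to this set was not tested. Depth differed too, with a median of 17786 UMIs in the *Sox6* nuclei and 13134.5 in the others.

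**Figure D4:**
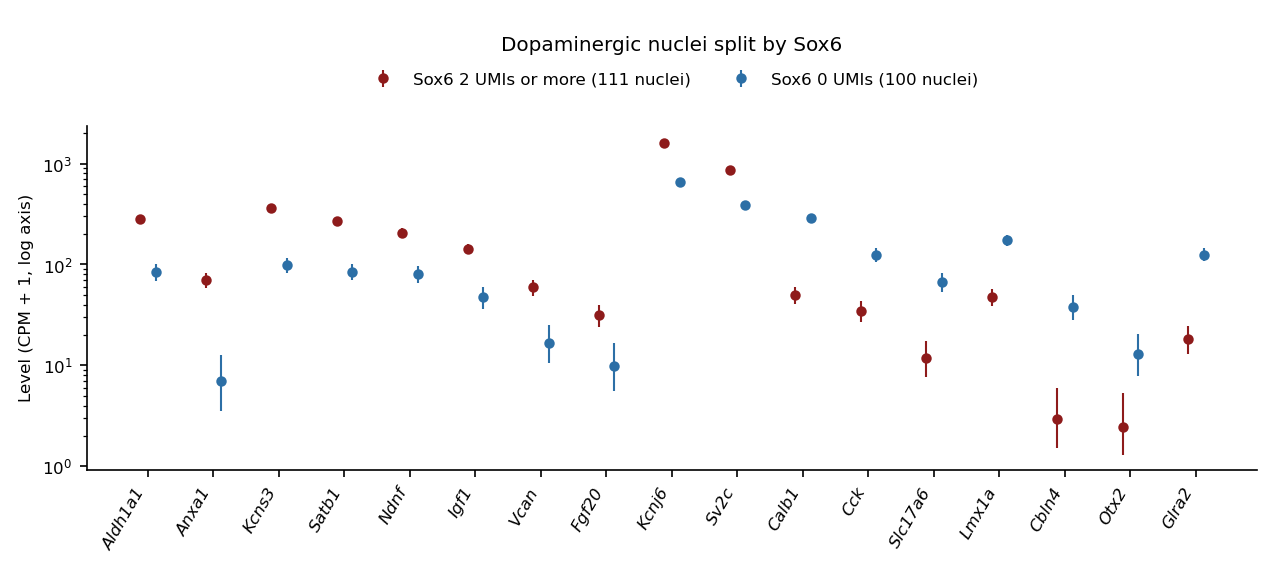
Level (CPM + 1, log axis) of subtype and receptor genes in dopaminergic nuclei with at least 2 *Sox6* UMIs (red, 111 nuclei) and without *Sox6* (blue, 100 nuclei), with exact 95% Poisson intervals for counting error. Genes from *Aldh1a1* to *Sv2c* are higher in the *Sox6* nuclei and genes from *Calb1* to *Glra2* higher in the nuclei without *Sox6*.

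UMIs of genes for a second transmitter were found in part of the nuclei. *Slc17a6* had at least 1 UMI in 57 nuclei (25.3%), of which 41 had no *Sox6*, and in 7.11% once nuclei were thinned to 3000 UMIs. In the serotonergic nuclei, at a median of 13562 UMIs, its share was 18.1%. *Gad2* had a UMI in 21.8% of the dopaminergic and 35.5% of the serotonergic nuclei, and in 6.67% of the thinned dopaminergic nuclei. The GABAergic, *Slc17a6* and oligodendrocyte nuclei were chosen with or without these genes and give no background share. The serotonergic nuclei were chosen by neither gene. The *Gad2* share of the dopaminergic nuclei lay below theirs and the *Slc17a6* share above it. Within the dopaminergic nuclei, *Slc17a6* had a UMI in 41% of those without *Sox6* and 13.5% of those with at least 2 *Sox6* UMIs. Whether these UMIs reflect use of a second transmitter was not tested. *Gad1* and *Gad2* together had at least 2 UMIs in 23 nuclei, of which 9 also lacked UMIs of *Pitx3*, *En1*, *Lmx1a*, *Lmx1b*, *Foxa1* and *Foxa2*.

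*Vip*, a neuropeptide gene of a small dopaminergic group near the midline, had at least 2 UMIs in 7 nuclei from 5 libraries. These nuclei were chosen by *Vip*, and its level in them is a description, with 78 of the 160 UMIs in 1 nucleus of control library 2. The summed level was 3307 CPM (2815 to 3861), and without control library 2 it was 2087 CPM (1647 to 2608) in 5 nuclei. *Calb1* was at 579 CPM (385 to 837) and *Cck* at 785 CPM (556 to 1078), and 488 CPM (289 to 771) and 677 CPM (438 to 1000) without that library. No UMI of *Sox6* or *Aldh1a1* was found in the 7 nuclei, where a count of 0 allowed up to 76.2 CPM. Other genes were mixed. *En1* and *Lmx1b* were each found in 57.1% of the 7 nuclei, *Lmx1a* in 42.9% and *Nr4a2* in 14.3%, while *Otx2* and *Neurod6* had no UMI. Of the forebrain and hypothalamic genes, *Prlr* was in 71.4% at 351 CPM (205 to 563) and *Onecut2* in 42.9% at 82.7 CPM (22.5 to 212), and the others had no UMI. The 7 nuclei were shallow, with a median of 6028 UMIs and of 2 *Slc6a3* UMIs, the least that the rule allows.

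A minority of the nuclei selected by *Slc6a3* and *Th* had no UMI of 6 of the midbrain factors. No UMI of *Pitx3*, *En1*, *Lmx1a*, *Lmx1b*, *Foxa1* or *Foxa2* was found in 20 nuclei, 15 from mutant and 5 from control mice, with 7 in mutant library 4. They had a median of 7474.5 UMIs and 3 *Slc6a3* UMIs, against 16213 UMIs and 18 *Slc6a3* UMIs in the 205 nuclei with a factor. *Ddc* was at 260 CPM (189 to 349) in them and 697 (669 to 726) in the others, *Slc18a2* at 443 (348 to 555) against 1003 (970 to 1037), and *Ret* at 136 (86 to 204) against 388 CPM (368 to 410). Factors of the identity list that did not define the 20 nuclei were found in some of them. *Nr4a2* was in 40% of the 20 and 89.3% of the 205, at 148 (95.5 to 218) against 251 CPM (235 to 269), *Ebf1* in 25% and 43.4%, at 76.7 (40.9 to 131) against 110 CPM (99.3 to 122), and *Ebf3* in 10% and 77.6%, at 35.4 (13 to 77.1) against 216 CPM (201 to 233). *En2*, *Otx2* and *Ebf2* had no UMI, which allowed up to 21.8 CPM. *Sox6* was in 45% and 56.6%, at 431 (338 to 542) against 445 CPM (423 to 468). Genes seen to differ afterwards were each found in part of the 20 nuclei. *Gad2* had a UMI in 60% of them and 18% of the 205 others (248 against 24.8 CPM), *Meis2* in 40% and 5.37% (395 against 12.6 CPM) and *Dlx1* in 35% and 0.976% (88.5 against 0.584 CPM). *Zeb2* was in 25% and 6.83%, with a summed 549 (443 to 672) against 8.76 CPM (5.91 to 12.5), and *Trh*, the gene of thyrotropin-releasing hormone, in 15% and 1.95% (148 against 1.17 CPM), so most of the 20 nuclei had no UMI of either. At this depth the values do not settle whether these 20 nuclei came from the midbrain, and they were kept because the rule selects them.

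The make-up of the dopaminergic nuclei was compared between genotypes as the share of nuclei, thinned to 3000 UMIs, with a UMI of each of 12 subtype genes. None of the 12 passed after Benjamini-Hochberg adjustment, in exact permutation tests over 6 mutant and 5 control libraries. This design could not have called a single gene on its own, since the smallest possible p of 0.004329 becomes 0.0519 when it is adjusted over 12 genes with no other near it, so the values are given as a description. *Sox6* was found in 43.1% ± 9.47 of the mutant and 46.2% ± 9.89 of the control nuclei (SD over libraries), and *Aldh1a1* in 25.4% ± 11.4 and 28.8% ± 7.88, both with an adjusted p of 0.851. Without thinning, *Sox6* was found in 56% ± 8.17 and 54.7% ± 9.08, so the direction of its small difference turned. The lowest p was that of *Ntsr1*, in 22.4% ± 11.6 and 35.9% ± 9.04 (difference -13.5 points, p = 0.0693, adjusted p = 0.831, exact permutation test). *Slc32a1*, the vesicular GABA transporter gene, was found in 11.4% ± 7.71 and 5.87% ± 4.2, with an adjusted p of 0.851.

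Gene by gene, no difference between mutant and control dopaminergic nuclei passed the threshold. Of 5708 genes tested on UMIs summed per library (6 mutant and 5 control libraries, edgeR), 0 were called, which is 0% of the genes tested, and 288 (5.05%) had an unadjusted p under 0.05. DESeq2 called 0 as well, with 150 at an unadjusted p under 0.05. Since no gene was called, no member of the synthesis, transport, breakdown, identity, receptor, channel, Parkinson or calcification lists was called either. The levels of the genes that mark the cell type were close. *Ddc* was at 524 to 871 CPM in the mutant and 618 to 750 CPM in the control libraries tested (log2 -0.03 ± 0.13), and *Slc18a2* at 738 to 1137 and 912 to 1077 CPM (log2 -0.09 ± 0.12). The log2 differences of *Slc6a3* and *Th*, whose low end the rule cut off, were -0.11 ± 0.12 and -0.10 ± 0.14. All 7 mitochondrially encoded genes tested had a positive log2 difference, with a median of 0.57 and 2 at an unadjusted p under 0.05, and mitochondrial UMIs were 0.181% of the UMIs in mutant library 4 and at most 0.0843% in any other library.

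The genes of lowest p between genotypes are given as not past the threshold. *Cst3*, which encodes the protease inhibitor cystatin C and is abundant in glia, had the lowest adjusted p, 0.271, with 167 ± 51.4 CPM in the 6 mutant and 83.7 ± 14.7 CPM in the 5 control libraries (log2 1.00 ± 0.20, edgeR). Control library 4, outside the test with 7 nuclei, was at 211 CPM, inside the mutant range of 95.9 to 223 CPM. Without mutant library 2 the adjusted p of *Cst3* was 0.0207. *Cdc37*, a kinase co-chaperone gene, had 36 ± 5.52 and 17.4 ± 6.52 CPM (log2 1.03 ± 0.29, adjusted p = 0.89), and control library 4 was at 35.2 CPM. *Cadm1*, *Erp29* and *Tgoln1* were the other 3 with a higher mean in the mutant libraries.

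In the other direction, *Bmpr1b*, a receptor for bone morphogenetic proteins, was at 75.7 ± 26.5 CPM in the mutant and 141 ± 34.6 CPM in the control libraries (log2 -0.89 ± 0.22, adjusted p = 0.89, edgeR). *Wdpcp*, a planar cell polarity gene, was at 57.3 ± 4.01 and 89.4 ± 12.5 CPM (log2 -0.67 ± 0.17, adjusted p = 0.89), and all 6 mutant libraries lay below all 5 control libraries. *Hmgn3*, *Dram1* and *Il1rapl2* had log2 differences of -0.61 ± 0.16, -0.93 ± 0.26 and -0.55 ± 0.16.

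**Figure D5:**
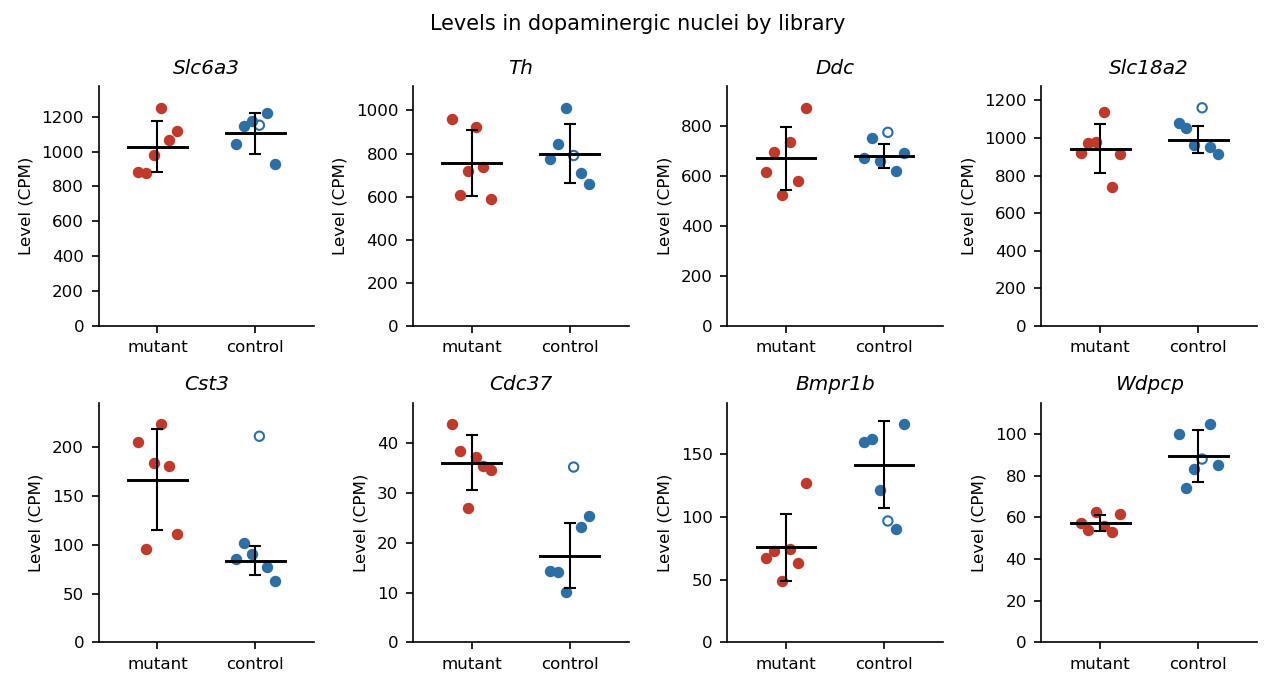
Level (CPM) in the dopaminergic nuclei of each mutant (red) and control (blue) library, with the mean and SD of the libraries tested as bars and control library 4, left out of the test, as an open circle. The upper row shows the 4 marker genes, whose groups overlap. The lower row shows the genes of lowest p in each direction, *Cst3* and *Cdc37* (higher mean in the mutant) and *Bmpr1b* and *Wdpcp* (lower mean). None of them passed the threshold.

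Whether the genotype effect in dopaminergic nuclei differed from that in GABAergic and *Slc17a6* nuclei of the same libraries was tested as an interaction over 15924 genes. None passed (0%), with 944 (5.93%) at an unadjusted p under 0.05, and DESeq2 called 0 with 493. In simulated data the edgeR fit found 63 of 199 genes with a seeded log2 change of 1. It found 120 of 198 with a change of 2. Differences of such size could thus go uncalled. With the replicate number by population as a block, 26 genes passed (7 higher, 19 lower), *Bmpr1b* among them (log2 -1.08, adjusted p = 0.0049). With age-matched mice by population as the block, an alternative added after seeing the data, 25 passed (7 higher, 18 lower), again with *Bmpr1b* (log2 -1.07, adjusted p = 0.00776). There, 724 genes had an unadjusted p under 0.05. The calls for this interaction thus depended on the block. The *Bmpr1b* interaction was -1.06 ± 0.24 on the log2 scale (adjusted p = 0.172, edgeR) and that of *Cst3* 0.50 ± 0.18 (adjusted p = 0.695). Leaving out control library 5 or mutant library 6 brought the *Bmpr1b* value to -1.28 in both cases, with an adjusted p of 0.00381 and 0.0142, so its call without a block depended on which of these libraries was included.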

How the data were processed

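Nuclei of 12 deep brain and 12 cortex libraries (10x Chromium 5′ kit) were used. The deposited UMI counts were made by the authors with bcl2fastq 2.20.0.422 and Cell Ranger 5.0.1, with introns, on mm10, and were not normalized. The deep brain libraries held 64736053 to 96459036 UMIs. Doublets were scored with Scrublet (scanpy 1.11.5) and not removed. UMIs were summed per library and population and tested with edgeR 4.0.16 (R 4.3.3, TMM, filterByExpr, quasi-likelihood), with DESeq2 1.42.0 as an alternative, on libraries with at least 10 dopaminergic nuclei. The fits were tested on simulated data with seeded changes. At a log2 change of 1, edgeR found 166 of 186 such genes between genotypes and 63 of 199 for the interaction. Against GABAergic, *Slc17a6* and serotonergic nuclei it found 145 of 180, 122 of 177 and 140 of 156. Shares and depths were compared with exact permutation tests (scipy 1.17.1). Named genes were the rule's genes, list members by mean level, the 8 called genes of largest change per direction and population with the same sign in every library and at least 50 CPM in the higher population, and the 5 of lowest p per direction between genotypes. *Anxa1*, *Zeb2*, *Meis2*, *Dlx1*, *Trh* and the subsets of nuclei were chosen after their values were seen. The nuclei, lists and tests were chosen with earlier results of these data known. Gene positions are those of GENCODE M21 and promoters those of RefSeq. The labels number the mice as separate biological replicates. Some genes are not reported here.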

Additional observations from a re-analysis of the deposited data

Results flagged for a closer look

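Among 56 groups of 4 to 10 libraries examined, 5 had a library whose gap to its nearest neighbour exceeded Dixon's 95% critical value, and chance flags about 1 in 20 groups. In mutant library 4 the dopaminergic share was 0.353%, and the next mutant library was at 0.262%. In mutant library 3, 37.5% of the thinned dopaminergic nuclei had a *Gad2* UMI, and the next mutant library was at 12.5%. In mutant library 5, 47.4% of them had an *Lmx1a* UMI, and the next was at 25%. *Bmpr1b* was at 127 CPM in mutant library 6, and the next mutant library was at 74.4 CPM. *Il1rapl2* was at 1576 CPM in control library 1, and the next control library was at 1142 CPM. What made these libraries stand apart was not tested.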

How the results depend on the processing

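The difference in dopaminergic share between genotypes had no stable sign and passed in no setting, of which mice 1 to 3 and mice 4 to 6, with 3 against 3, could not go below p = 0.1 in the exact permutation test. It was 0.00168 points as reported, -0.00266 over all nuclei within the limits, -0.0116 with thinned nuclei, -0.00418 and -0.0208 with at least 1 and 3 *Slc6a3* UMIs, -0.0564 within mice 1 to 3 and 0.0597 within mice 4 to 6 (exact permutation p = 0.4 and 0.6), -0.0195 for nuclei with a midbrain factor (added after seeing the data) and -0.0262 to 0.0283 when 1 library was left out. The depth difference held without any 1 library (-3868 to -2831 UMIs, exact permutation p = 0.0159 to 0.0476), and on mean log2 UMIs it was -0.239 and past the threshold no longer. Between genotypes, 23 genes (13 higher, 10 lower) passed without the filter on low counts, among them *Cst3*, *Bmpr1b* and *Il1rapl2*, and 0 to 1 when a library was left out, *Cst3* without mutant library 2. The interaction gave 17 genes without the filter, 1 with at least 3 *Slc6a3* UMIs and 0 to 7 when a library was left out, the most without mutant library 1, and the cause was not tested. Thinning to 3000 UMIs, which leaves fewer UMIs, gave 1690, 1814 and 329 genes against GABAergic, *Slc17a6* and serotonergic nuclei, and leaving out a library gave 4063 to 4280, 4187 to 4387 and 930 to 1020. Libraries of the 2 genotypes share replicate numbers, and the labels give the same age to mice 1 to 4 of both genotypes and cross it between mice 5 and 6, without naming a shared litter or day. The correlation of deviations was positive in all 5 pairs and over the limit of 0.1 in 1 (0.0384 to 0.112), and the fits between genotypes without a pair block were kept as the main ones. These values do not show that the mice were unpaired. The pairs were those of equal number, so the pairing of mice 5 and 6 by age was not checked. With the replicate number as a block the share difference stayed at 0.00168 (p = 0.938, exact permutation test), the genes between genotypes stayed at 0 calls, the blocked test of the subtype shares could give no call (smallest possible exact p = 0.0625 with 5 pairs), and the interaction, with a block by population, gave 26 genes (7 higher, 19 lower). With age-matched mice as a block (mutant 5 with control 6, mutant 6 with control 5) the genes between genotypes stayed at 0 calls, and the interaction, added after seeing the data, gave 25 genes. Without the library as a block the population comparisons called 4553, 4693 and 1073 genes.

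Among single values that were not past the threshold, the sign turned for the *Sox6* share without thinning (1.24 points) and the *Aldh1a1* share without mutant library 1 (0.629 points, range -5.82 to 0.629 over libraries left out). Between genotypes the log2 difference turned for *Ddc* with at least 3 *Slc6a3* UMIs (0.031) and without mutant library 1, 3 or 5 or control library 2 (-0.122 to 0.0369), and for *Th* without control library 3 (-0.17 to 0.00367). Against GABAergic nuclei it turned for *Aldh2* without the filter (-0.075), without the male control (-0.070) and when other libraries were left out (-0.0757 to 0.121), and for *Cacna1c* with thinned nuclei (-0.14). Against *Slc17a6* nuclei it turned for *Aldh2* without the filter (-0.0049) and on leaving out libraries (-0.0752 to 0.163), for *Calb2* with at least 3 *Slc6a3* UMIs (-0.024) and thinned nuclei (-0.28), and for *Cck* with at least 3 (-0.082). Against serotonergic nuclei it turned for *Maoa* without the male control (0.11), with at least 3 *Slc6a3* UMIs (0.039) and when libraries were left out (-0.183 to 0.119), for *Uchl1* without the male control (-0.02, range -0.023 to 0.178), for *Ddc* without Scrublet doublets (-0.034) and for *Cacna1c* with thinned nuclei (-0.15). No other named difference changed sign in a setting tried.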
